A study of Mus musculus with 8 samples.

Results

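RUNX1S291fs and wild-type LSK cells that had shared the marrow of the same recipients were compared on 2 of the series' 8 arrays, 1 array for each population. The RUNX1S291fs array held CD45.2+ donor cells and the competitor array held the CD45.1+ wild-type cells that had grown beside them. Both arrays lay on the same slide. A gene entered the comparison where its probe was well above background on at least 1 of the 2 arrays, which 12948 of 20660 named genes were. With 1 array a group there is no replicate, so no difference below has a test, an SD or a p-value.

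LSK cells are lineage-negative, Sca-1-positive, c-Kit-positive marrow cells, the fraction that holds the blood stem cells and early progenitors of the mouse. In the RUNX1S291fs group, Cre-ERT;Ezh2wt/wt donor stem cells carried RUNX1S291fs from a retrovirus, were grafted into lethally irradiated mice, and were taken at month 4 in a stage the labels call normal, pre-MDS (MDS is myelodysplastic syndrome). The competitor group was the CD45.1+ wild-type marrow given with them, taken at the same month. A second pair of arrays with the same layout was used for comparison: RUNX1S291fs cells that had also lost Ezh2 (RUNX1S291fs/Ezh2Δ/Δ, called the double mutant here) and the CD45.1+ wild-type competitors from their recipients, both at month 4. A further wild-type array held empty-vector CD45.2+ cells at month 4 (WT), and 3 other arrays held Ezh2Δ/Δ cells at month 4 and double-mutant cells of 1 mouse with MDS and of 1 mouse with MDS and myeloid leukemia. All mice were C57BL/6. CD45.2+ cells at month 4 were pooled from 2 to 4 mice. RUNX1S291fs came from a retrovirus, and the labels name no vector marker in the sort. The competitors are labelled wild type with no vector or Cre, so the lesion, the vector and the donor cannot be told apart within the pair.

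RUNX1 is a transcription factor that binds DNA together with CBFB and is needed to form blood stem cells and, in adult marrow, to mature megakaryocytes and lymphocytes. Mutations of RUNX1 occur in MDS and acute myeloid leukemia. Frameshifts late in the gene keep the DNA-binding Runt domain and alter the activating tail.

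The level of a gene is its processed signal on the log2 scale after subtraction of the array's 75th percentile. A level of 0 marks that percentile, and 1 unit is 2-fold. A difference is RUNX1S291fs minus competitor, and a gene is called higher or lower where it is at least 1 in size. Where 1 array was not well above background, its value was raised to the lowest well-above-background level of that array, and the difference is a bound ("at least"). A bound on the wrong side of 0 gave no direction and was set to 0. Between 43.9% and 55.3% of probes were well above background on the 8 arrays. The competitor array was the dimmest of them, at 43.9% with a 75th percentile of 185.7 signal units, against 48.2% and 278.2 units on the RUNX1S291fs array. Because the competitor array also departed from the other wild-type arrays, most lists and named genes described below are set beside the second competitor array, which lay on the same slide. Repeat spots of a probe varied with a median SD of 0.0988 on the RUNX1S291fs array and 0.115 on the competitor array, which covers spotting only.

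Genes of the LSK gate itself lay within 2-fold in the pair. Kit, the receptor on which LSK cells are gated, had a level of 4.75 on the RUNX1S291fs array and 4.06 on the competitor array. Ly6a, which encodes Sca-1, had 3.52 on the RUNX1S291fs array and 3.90 on the competitor array. Cd34, a marker of progenitors past the most primitive stage, had 8.17 and 7.88 in the same order of arrays. Ptprc, which encodes CD45 itself, had 1.88 on the RUNX1S291fs array and 1.80 on the competitor array. Of the 9 sort and subset markers listed, these included, 1 was higher, Slamf1 at no less than 2.49, and 2 were lower, Il7r by a difference of -2.45 and Thy1, found on stem cells and T cells, by -1.73. Of 12 genes that mark the lineage gate, 10 had a probe and 6 were measured. Of these 6, Itgam, a myeloid integrin, was present at 5.27 on the RUNX1S291fs array and 4.89 on the competitor array, while 2 were lower: Ptprcap, a lymphocyte protein bound to CD45, differed by -1.64 and Cd3g, a T cell receptor chain, by -1.48 or beyond. Cd8a was not well above background on either array. Xist had 1.84 and 1.78, and the Y-linked genes Ddx3y, Eif2s3y, Kdm5d and Uty were not well above background on either array.

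Runx1 was higher in the pair. It had a level of 4.41 on the RUNX1S291fs array, 3.25 on the competitor array and 3.55 on the second competitor array, a difference of 1.17 within the pair. The double mutant, which also carried RUNX1S291fs, had 3.47 for Runx1, a difference of -0.08 from its own competitors. The sources used here do not say whether its probe reads the retroviral transcript. Runx2, the family member best known from bone, differed by 1.37 and Runx3 by 0.17. Cbfb, the common partner, had 5.66 on the RUNX1S291fs array and 6.26 on the competitor array. Ezh2, which was not deleted in either population, had 3.40 and 4.01.

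In all, 1182 genes were at least 2-fold higher on the RUNX1S291fs array, 9.13% of those measured, and 1599 were at least 2-fold lower, 12.3%. The median difference over all measured genes was -0.14, and 10167 genes (78.5%) lay within 2-fold. At 4-fold the counts were 342 higher (2.64%) and 227 lower (1.75%). The share of calls that were higher was 42.5%, against 55.9% after quantile normalization and 61.2% after cyclic loess, which moved the median of all genes by 0.14 and 0.20, and 59.1% after normexp background correction with quantile normalization. The excess of lower calls lay among bright genes: in the brightest of 4 equal classes of mean level the median difference was -0.42, with 3.77% of genes higher and 18.9% lower, while in the dimmest class it was 0.03, with 14.9% higher and 13.4% lower. Genes named below as lower and bright should be read against that median.

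The same cells gave fewer differences against the other competitor array. RUNX1S291fs minus the competitors of double-mutant recipients gave 754 genes higher (5.62%) and 689 lower (5.13%) of 13422, or 10.8% in either direction, against 21.5% in the pair. Of the 1182 genes higher in the pair, 379 (32.1%) were also higher against that array, and of the 1599 lower genes 305 (19.1%) were also lower. Between the 2 competitor arrays, both wild type, 16.6% of 13253 genes were at least 2-fold apart (7.27% higher and 9.37% lower on the second). A narrower set lay beyond all 3 wild-type arrays: 334 of 12838 genes (2.6%) were at least 2-fold higher on the RUNX1S291fs array than on each of them, and 222 (1.73%) at least 2-fold lower.

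**Figure D1:**
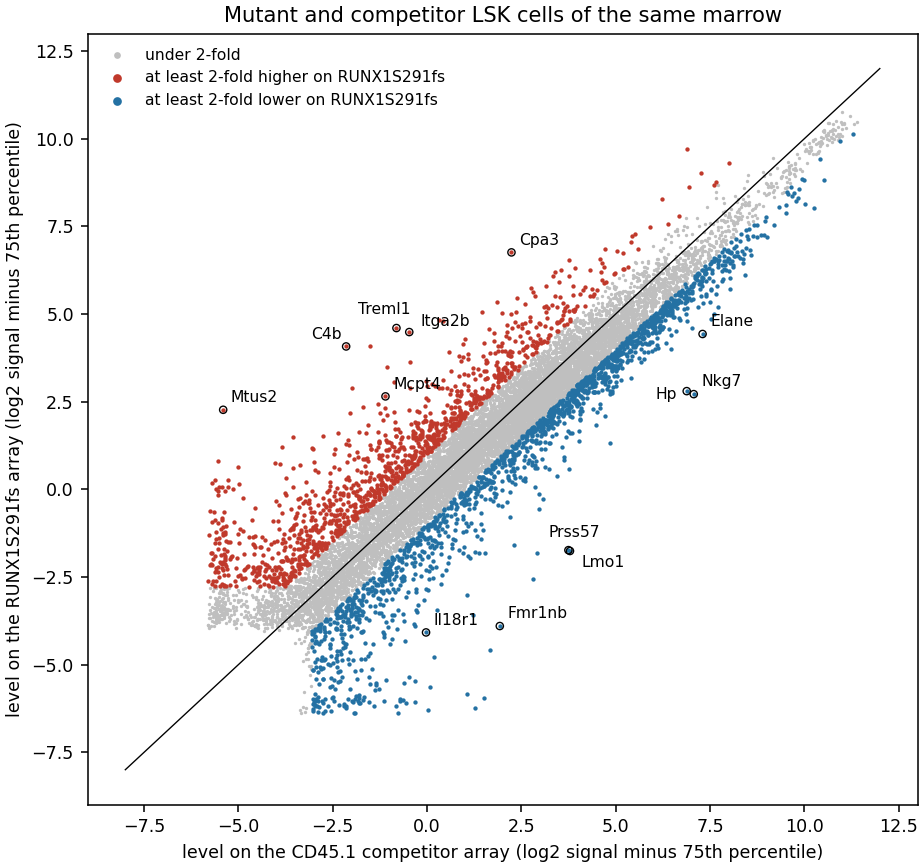
Level of each of 12948 genes in RUNX1S291fs cells (y axis) against the CD45.1 competitors of the same marrow (x axis), both as log2 signal minus the array's 75th percentile, measured values before any bound. Red points are the 1182 genes at least 2-fold higher on the RUNX1S291fs array, blue points the 1599 at least 2-fold lower, and the line marks equal levels; at the bright end the cloud bends below the line.

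Mast cell and basophil genes were higher against both competitor arrays. Of 28 genes on the list, 24 were measured, 14 were at least 2-fold higher and 4 lower, with a median difference of 1.74 against -0.14 for all genes. Set against the second competitor array, 12 were higher and 2 lower, with a median of 1.29. The median in the pair came under 2-fold, to 0.90 after normexp with quantile normalization and to 0.86 over the genes well above background on both arrays. Cpa3, the carboxypeptidase stored in mast cell granules, had a level of 6.76 on the RUNX1S291fs array, 2.24 on the competitor array, 2.24 on the second competitor array and 1.45 on WT, a 23.0-fold difference within the pair. Of the genes beyond all 3 wild-type arrays, Cpa3 had the widest gap to the nearest of them, 4.52. The promoter of Cpa3, the 250 bases before its start in RefSeq GRCm38.p6 (chr3:20242182-20242431, minus strand), is shown because this gene carries the largest such difference. Capitals mark its 1 RUNX match, on the opposite strand and beginning 73 bases before the start, and its 1 GATA match.
Cpa3 promoter: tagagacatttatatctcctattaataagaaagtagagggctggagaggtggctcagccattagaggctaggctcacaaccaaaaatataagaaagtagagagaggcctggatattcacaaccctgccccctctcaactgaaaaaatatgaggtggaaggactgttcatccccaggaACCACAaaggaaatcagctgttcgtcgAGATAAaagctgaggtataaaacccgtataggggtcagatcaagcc

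Several other granule and receptor genes of the mast cell list lay the same way. Mcpt4, a chymase of connective tissue mast cells, had 2.65 on the RUNX1S291fs array, -1.10 on the competitor array and -2.48 on the second competitor array. Prss34, a mast cell and basophil protease, had 0.21 on the RUNX1S291fs array and -2.57 on the competitor array. Cd200r3, an activating receptor of mast cells and basophils, had -0.26 on the RUNX1S291fs array and was not well above background on the competitor array, a difference of at least 3.53. Its neighbour in the family, Cd200r4, was at least 4.61 higher. Il1rl1, the receptor for interleukin 33, had 2.20 on the RUNX1S291fs array and -0.21 on the competitor array, a difference of 2.41. On 2 other probes of Il1rl1 the difference was 1.01 and 1.27. Some mast cell proteases are close relatives of each other, so a probe for 1 of them may also read others.

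The 4 lower members of the list were Ctsg, Mcpt8, Gzmb and Il4. Ctsg, a serine protease of primary granules in neutrophil precursors, had 8.13 on the RUNX1S291fs array, 10.02 on the competitor array and 8.23 on the second competitor array. Mcpt8, a basophil protease, had 2.35 on the RUNX1S291fs array and 3.81 on the competitor array, but 1.90 on the second competitor array, which turned its difference to 0.45. Gzmb, a granzyme, differed by -1.24 within the pair and Il4, the type 2 cytokine, by -1.68. Whether the group reflects a few mast cell or basophil precursors inside the gate or more RNA per cell cannot be told apart in bulk cells.

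Eosinophil genes were higher in the pair and far higher against the second competitor array. Of 12 genes, 11 were measured, 6 were higher and 1 lower, with a median of 1.11, and against the second competitor array 8 were higher and 0 lower, with a median of 3.36. The median in the pair was 0.87 after normexp with quantile normalization. Il5ra, the receptor chain for interleukin 5, had 0.05 on the RUNX1S291fs array, -2.03 on the competitor array and -2.17 on the second competitor array. Prg2, the major basic protein of eosinophil granules, had 4.49 on the RUNX1S291fs array, 2.68 on the competitor array and 0.98 on the second competitor array. Ear2, an eosinophil ribonuclease, had 3.32 on the RUNX1S291fs array and 2.11 on the competitor array and was 5.31 higher than on the second competitor array. The Ear genes are close copies of each other, and their probes may share signal. Cebpe, a transcription factor of late granulocyte maturation, ran the other way, with 2.70 on the RUNX1S291fs array and 3.92 on the competitor array.

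In the pair, megakaryocyte and platelet genes had the highest median of the 45 lists drawn by cell type or pathway. The exception was normexp, where immediate early genes had a higher one. Of 28 genes, 25 were measured, 17 were higher and 0 lower, with a median of 2.13. Treml1, a receptor of platelet granules, had 4.60 on the RUNX1S291fs array, -0.81 on the competitor array and 1.79 on the second competitor array. Itga2b, the platelet fibrinogen receptor subunit CD41, had 4.48 on the RUNX1S291fs array, -0.47 on the competitor array and 2.07 on the second competitor array. Clec1b, the platelet receptor for podoplanin, had 0.33 on the RUNX1S291fs array and was at least 4.07 higher than on the competitor array and 3.05 higher than on the second. These 3 genes were at least 2-fold higher against both competitor arrays.

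The size of the megakaryocyte result depended on which competitor array was used. With the second competitor array in its place, 11 megakaryocyte genes were higher and 2 lower, with a median of 0.77. That median was no longer the highest, with 3.36 for eosinophil, 1.29 for mast cell and 0.93 for NF-kappaB genes. Transcription factors of the erythroid and megakaryocyte lineages had a median of 0.79, with 5 of 16 measured genes higher and 0 lower: Gata2 differed by 2.18, Zfpm1, the GATA cofactor FOG1, by 2.14, Gfi1b by 1.89, Mafk by 1.81 and Runx1 by 1.17. None of these 16 was 2-fold apart (0 higher, 0 lower) from the second competitor array.

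**Figure D2:**
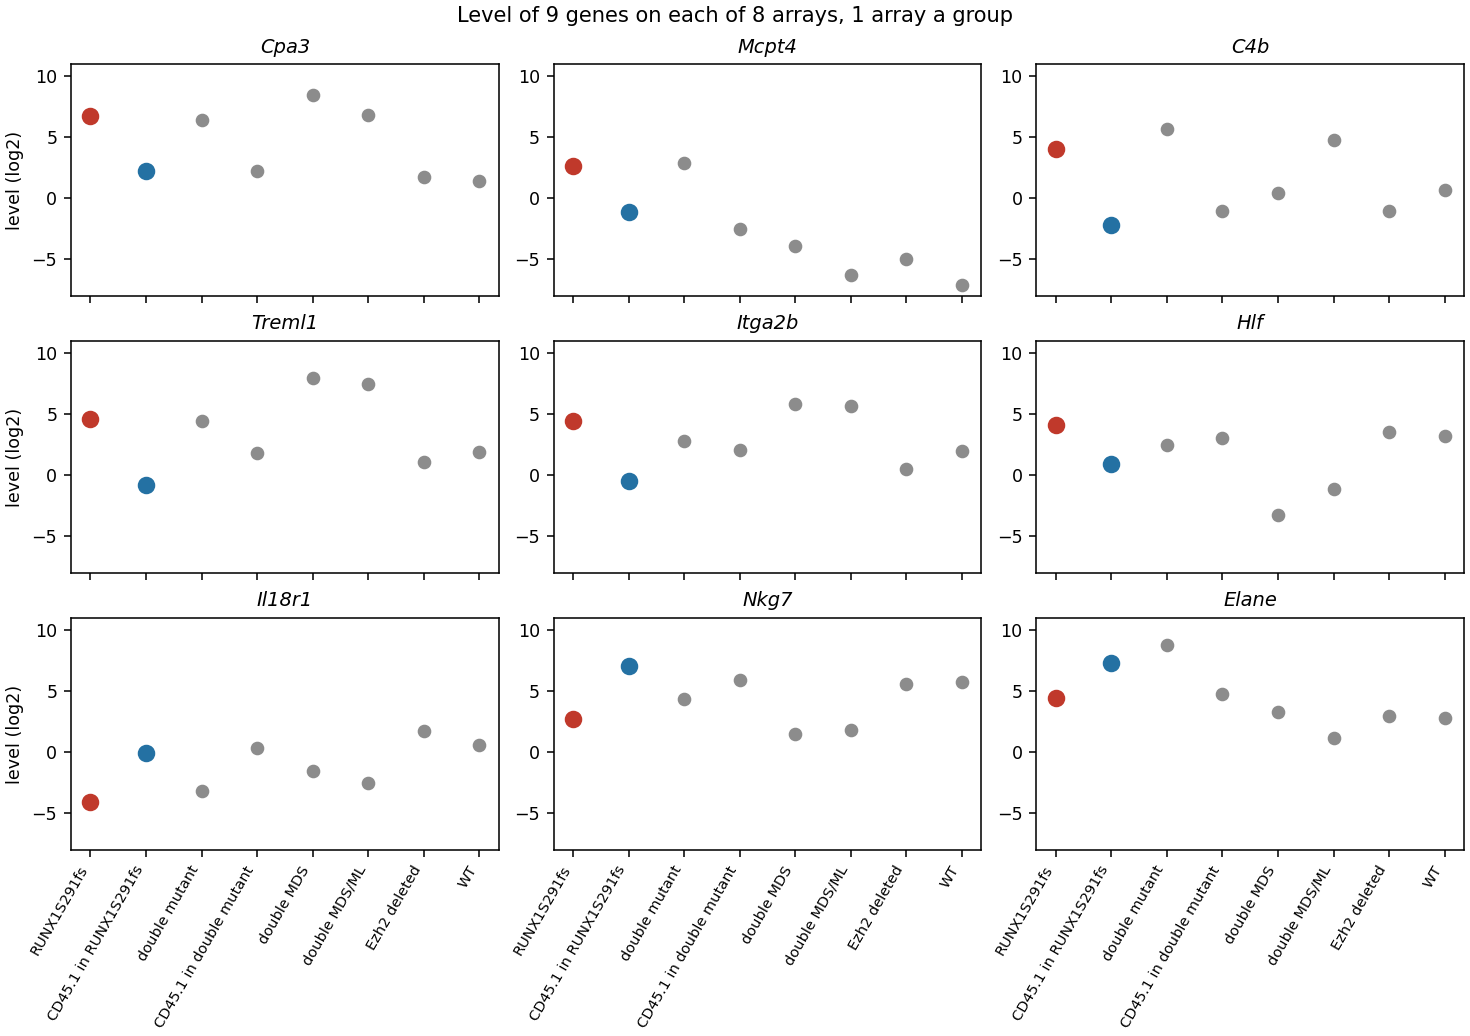
Level (log2 signal minus the array's 75th percentile) of 9 genes on each of the 8 arrays, 1 point an array, with RUNX1S291fs in red, its CD45.1 competitors in blue and the other arrays in grey; double stands for RUNX1S291fs/Ezh2Δ/Δ. Cpa3 was at 6.76 on RUNX1S291fs, against 2.24, 2.24 and 1.45 on the 3 wild-type arrays, whereas Hlf was at 4.15 on RUNX1S291fs, against 0.94 on its competitors, 3.03 on the second competitor array and 3.24 on WT.

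Stem cell genes were higher in RUNX1S291fs cells than in the competitors of the same marrow. Of 30 genes, 29 were measured, 19 were higher and 1 lower, with a median of 1.68. Sult1a1, a sulfotransferase enriched in stem cells, had 2.88 on the RUNX1S291fs array, -1.98 on the competitor array and 0.23 on the second competitor array. Hlf, a transcription factor of stem cells, had 4.15 on the RUNX1S291fs array, 0.94 on the competitor array and 3.03 on the second competitor array. Procr, the stem cell surface marker EPCR, had 3.80, 0.86 and 2.50 on the same arrays. Ifitm3, an interferon-induced membrane protein, was the 1 lower member, at 4.20 on the RUNX1S291fs array and 5.27 on the competitor array.

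Against the second competitor array the stem cell list had a median of 0.02, with 4 genes higher and 8 lower. Between the 2 competitor arrays, the second minus the first, 22 stem cell genes were at least 2-fold higher and 0 lower, beside 7.27% of all genes higher. Slamf1, the stem cell marker CD150, was at least 2.49 higher in the pair but had -1.03 on the RUNX1S291fs array and -0.58 on the second competitor array. Hoxb5 and Hoxb6, homeobox genes of stem cells, likewise turned, to -0.67 and -0.95. Of the 32 Hox genes, 13 were measured, with a median of -0.18 in the pair.

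Immediate early genes, the transcripts that answer a stimulus within minutes and also respond to cell handling, were higher. All 30 genes of this list were measured, 22 were higher and 1 lower, with a median of 1.75. Nr4a1, an orphan nuclear receptor, had 9.70 on the RUNX1S291fs array, 6.89 on the competitor array, 8.78 on the second competitor array and 6.74 on WT. Fosl2 and Junb, parts of the AP-1 factor, differed by 2.79 and 2.72, and Maff, a small Maf protein, by 2.64. Myc, a driver of growth that is also induced early, was the 1 lower member, at 2.77 on the RUNX1S291fs array and 4.39 on the competitor array. Against the second competitor array 9 were higher and 1 lower, with a median of 0.74.

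NF-kappaB and inflammatory genes were higher against both competitor arrays. Of 30 genes, 26 were measured, 16 were higher and 1 lower, with a median of 1.39, and against the second competitor array 11 were higher and 2 lower, with a median of 0.93. Ccl7, a chemokine for monocytes, had -0.16 on the RUNX1S291fs array, -2.99 on the competitor array and -4.76 on the second competitor array. Tnfaip3, the inhibitor A20, had 6.32, 3.93 and 4.86 on the same arrays. Zc3h12a, a ribonuclease that degrades inflammatory transcripts, differed by 2.57 and Icam1, an adhesion molecule, by 2.44, of which 1.07 and 0.30 were left against the second competitor array. Ccl3, a macrophage chemokine, was lower, at 3.05 on the RUNX1S291fs array and 4.83 on the competitor array. The sources used here do not give the time from marrow harvest to lysis, and its part in these genes was not tested.

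Growth-arrest genes were higher in part. Of 24 p53 target genes, 23 were measured, 7 were higher and 0 lower, with a median of 0.38, and against the second competitor array 4 were higher and 0 lower, with a median of 0.11. Cdkn1a, the cell cycle inhibitor p21, had 5.30 on the RUNX1S291fs array, 2.59 on the competitor array, 3.61 on the second competitor array and 1.69 on WT. Bbc3, the pro-apoptotic PUMA, differed by 2.35 and Plk3, a stress kinase, by 2.07. Cdkn1a was the 1 of 5 measured CDK inhibitors that was at least 2-fold higher, and Cdkn2a and Cdkn2b were not well above background on either array. Btg2, an antiproliferative gene on both the p53 and the immediate early list, differed by 1.93. In the TGF-beta and BMP list, 7 of 19 measured genes were higher and 0 lower, with a median of 0.66, led by Skil, a repressor of SMAD proteins, at 2.79. Against the second competitor array 2 genes of this list were higher and 2 lower, with a median of 0.04 and a difference of 0.96 for Skil.

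Genes of dividing and respiring cells were lower in the pair. Of 35 DNA replication and mitosis genes, 34 were measured, each of them had a negative difference, and 11 were at least 2-fold lower, with a median of -0.75. Under processing alternatives on the same 2 arrays this median shrank to as little as -0.38. Bright genes as a whole lay low, with medians of -0.16 and -0.42 in brightness classes 3 and 4 (the brightest). Rrm2, a subunit of ribonucleotide reductase, had 4.31 on the RUNX1S291fs array, 6.10 on the competitor array and 5.13 on the second competitor array. Ccnb1, the mitotic cyclin B1, had 3.64, 5.30 and 4.59 on the same arrays. Ccne1, a cyclin of the G1-S transition, had 2.59 on the RUNX1S291fs array and 4.24 on the competitor array. Against the second competitor array the median was -0.58, with 0 higher and 1 lower. Against WT it was -0.19, with 0 higher and 1 lower of 35. The mean level of the list was 3.40 on the RUNX1S291fs array and 4.25 on the competitor array. It was 3.97 on the second competitor array and 3.62 on WT, so the competitor array was the highest of these.

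Oxidative phosphorylation genes had the lowest median of the lists, -1.02, with 13 of 24 lower, 0 higher and 24 negative. This median shrank to -0.45 after quantile normalization, -0.54 after cyclic loess and -0.46 after normexp with quantile normalization, and was then no longer the lowest. Cycs, the electron carrier cytochrome c, had 5.80 on the RUNX1S291fs array, 7.68 on the competitor array and 6.29 on the second competitor array. Cox7b, a subunit of cytochrome oxidase, had 6.58, 8.28 and 6.42. Against the second competitor array 0 of 24 were 2-fold apart, with a median of -0.10. Their mean level of 6.12 on the RUNX1S291fs array stood beside 7.14 on the competitor array, 6.19 on the second competitor array and 6.17 on WT, so the competitor array was the high one among these. Ribosome biogenesis and Myc-linked genes (5 of 25 lower, median -0.68) lay the same way. So did cholesterol synthesis genes (6 of 21 measured lower, median -0.72). Of all genes 12.3% were lower, and of the brightest class 18.9%. The medians of both lists were -0.33 and -0.24 against the second competitor array, and -0.01 each against WT. The oxidative phosphorylation genes are bright, and the brightest class of all genes had a median of -0.42.

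**Figure D3:**
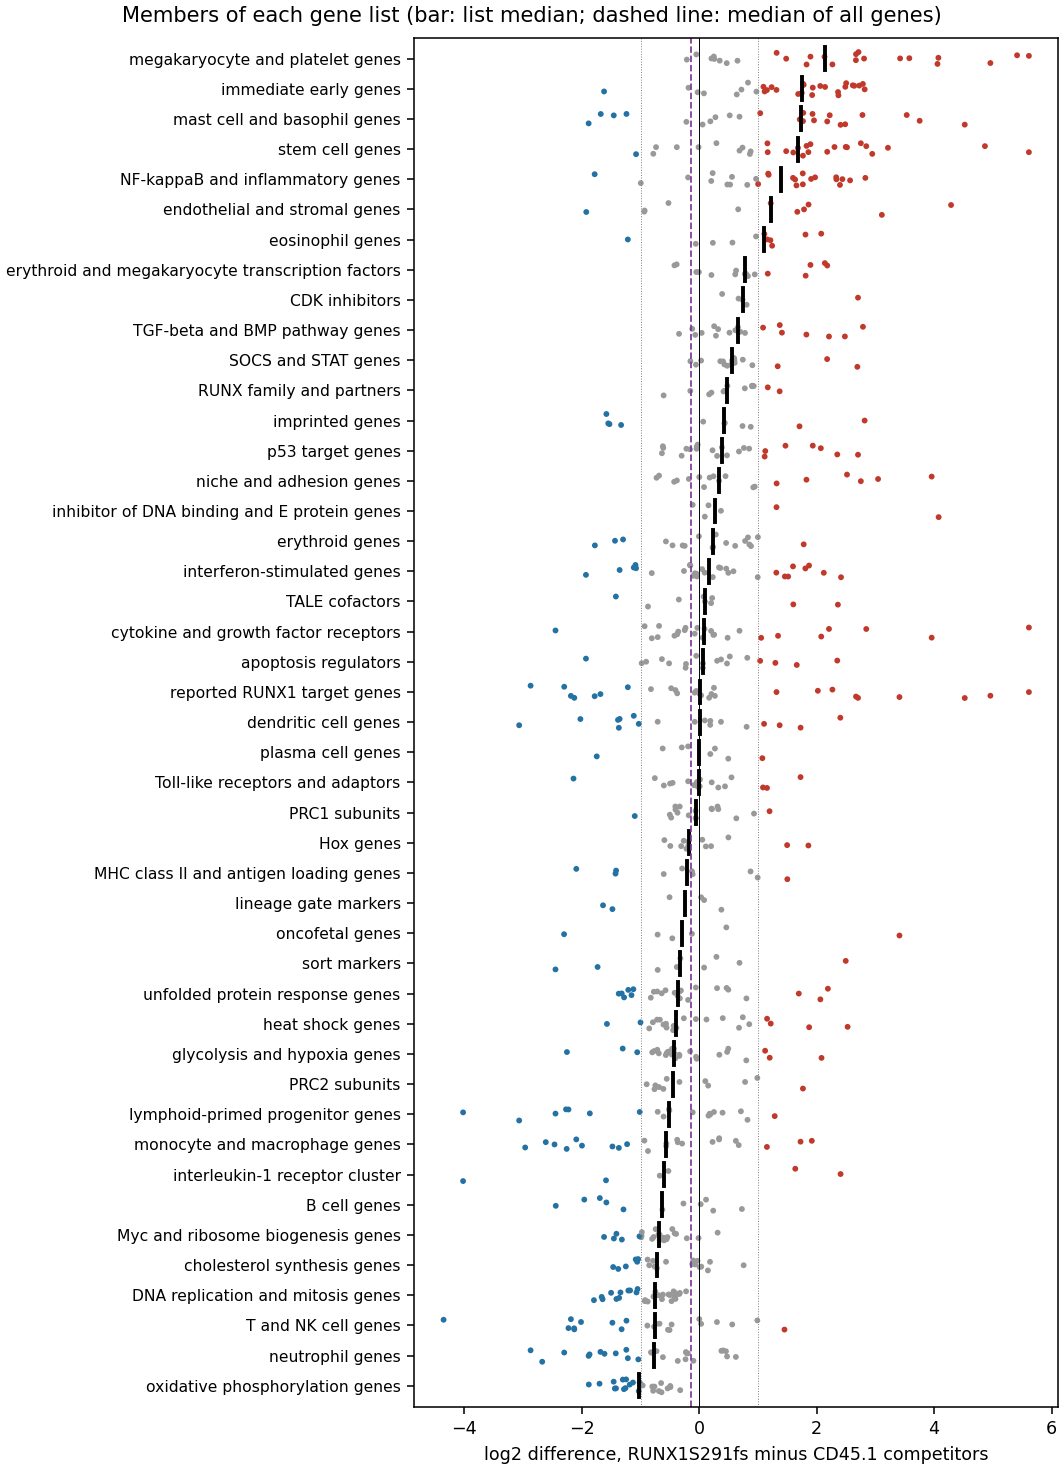
Difference (log2, RUNX1S291fs minus CD45.1 competitors) of every measured member of 45 gene lists, 1 point a gene, with genes at least 2-fold higher in red and at least 2-fold lower in blue; black bars are list medians, the dashed line the median of all genes, -0.14, and dotted lines mark 2-fold. Megakaryocyte genes lie furthest right, with a median of 2.13, and oxidative phosphorylation genes furthest left, at -1.02.

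Lymphoid genes were lower against both competitor arrays. Of 21 lymphoid-primed progenitor genes, 20 were measured, 7 were lower and 1 higher, with a median of -0.51, and against the second competitor array 11 were lower and 1 higher, with a median of -1.05. Il18r1, the receptor for interleukin 18, was not well above background on the RUNX1S291fs array but had -0.03 on the competitor array, 0.38 on the second competitor array and 0.56 on WT, so it was at least 4.02 lower in the pair. Il7r, the interleukin 7 receptor that early lymphocytes need, had -3.63 on the RUNX1S291fs array, -1.18 on the competitor array and 0.04 on the second competitor array. Ccr7, a homing receptor of lymphocytes and dendritic cells, had -3.31, -0.25 and -0.50 on the same arrays. Cnn3, a calponin, had 0.32, 2.59 and 3.01. Mef2c, a transcription factor of lymphoid-primed progenitors, was the 1 higher gene, at 1.46 on the RUNX1S291fs array and 0.18 on the competitor array, but had 1.49 on the second competitor array. Flt3, the receptor that marks the more committed part of the LSK gate, had 4.15, 4.86 and 5.75, within 2-fold in the pair but 1.60 below the second competitor array.

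The promoter of Il18r1 in the same annotation (chr1:40465302-40465551, plus strand) is shown as that of the lower gene with the widest gap to all 3 wild-type arrays among the listed lymphoid genes. It holds 0 RUNX and 0 GATA matches in these 250 bases.
Il18r1 promoter: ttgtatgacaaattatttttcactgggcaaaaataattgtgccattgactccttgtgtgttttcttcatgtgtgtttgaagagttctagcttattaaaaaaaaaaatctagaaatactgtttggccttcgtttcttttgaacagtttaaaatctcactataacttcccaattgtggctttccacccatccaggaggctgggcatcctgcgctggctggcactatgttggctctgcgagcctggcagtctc

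RUNX motifs were searched as TGTGGT and TGCGGT and GATA motifs as AGATAA and TGATAA, on both strands. A RUNX match was present in 145 of 926 promoters of higher genes (15.7%), in 266 of 1304 promoters of lower genes (20.4%), in 17.6% of promoters of measured genes and in 18.7% of 27025 promoters in all. GATA matches were present in 10.8% of promoters of higher genes, 12.3% of those of lower genes and 10.2% of those of measured genes. These are counts of letters and not of bound sites.

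B cell genes were lower and mostly dim. Of 24 genes, 11 were measured, 5 were lower and 0 higher, with a median of -0.63, and Cd79a, Ebf1 and Pax5 were not well above background on either array. Vpreb1, part of the surrogate light chain of early B cells, had -1.18 on the RUNX1S291fs array, 1.27 on the competitor array and 3.88 on the second competitor array. Vpreb3, a related chain, had -2.61, -0.65 and 3.70, and Blnk, a B cell signalling adaptor, had -0.43, 1.26 and 3.76. With the second competitor array, 10 of 20 measured B cell genes were lower and 0 higher, with a median of -1.01. Of all genes 12.3% were lower in the pair and 5.13% against the second competitor array. The competitor arrays also differed on this list, with 9 of 20 genes higher and 0 lower on the second.

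T and NK cell genes were lower in the pair too, with 9 of 22 measured genes lower, 1 higher and a median of -0.75. With the second competitor array, 9 of 23 were lower and 1 higher, with a median of -0.24. Beside WT, 7 of 23 were lower and 4 higher, with a median of -0.02. Of all genes 12.3% were lower in the pair and 5.13% against the second competitor array. Nkg7, a granule protein of cytotoxic lymphocytes, had 2.71 on the RUNX1S291fs array, 7.07 on the competitor array, 5.92 on the second competitor array and 5.72 on WT, a 20.5-fold difference in the pair. Lck, the T cell receptor kinase, had 1.61 on the RUNX1S291fs array, 3.84 on the competitor array and 4.26 on the second competitor array. Zap70, another kinase of that pathway, differed by -2.13 and Il2rb, a receptor chain for interleukins 2 and 15, by -2.19. Gata3, a T cell transcription factor, was the 1 higher gene, at 1.23 on the RUNX1S291fs array and -0.22 on the competitor array, but had 1.67 on the second competitor array.

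Neutrophil genes were lower than on the competitor array of the pair but not than on the second. Of 29 genes, 26 were measured, 11 were lower and 0 higher, with a median of -0.77. Elane, neutrophil elastase, had 4.43 on the RUNX1S291fs array, 7.30 on the competitor array and 4.80 on the second competitor array. Ms4a3, a marker of granulocyte and monocyte progenitors, had 4.86, 7.53 and 4.87, and Gfi1, a repressor needed for neutrophils, had 2.19, 4.49 and 3.73. With the second competitor array, 10 neutrophil genes were higher and 1 lower, with a median of 0.44. Monocyte and macrophage genes were mixed, with 9 of 24 measured genes lower and 3 higher: Cx3cr1, a chemokine receptor, differed by -2.97 and Ly6c1 by -2.61, while Axl, a receptor kinase, differed by 1.92 and Cd14, the endotoxin co-receptor, by 1.72. The balance of this list turned against the second competitor array, with 6 higher and 2 lower and a median of 0.23, beside -0.56 in the pair.

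Several of the largest differences fell outside these groups. C4b, complement component C4, was the highest of genes measured on both arrays, at 4.07 on the RUNX1S291fs array, -2.15 on the competitor array, -1.06 on the second competitor array and 0.65 on WT, a 74.5-fold difference in the pair. Mapk12, a p38 kinase, had 2.19, -2.05 and -1.16 on the first 3 of these arrays, and Phlda1 had 4.81, 0.43 and 2.28. Mtus2, a microtubule-associated protein, was at least 6.05 higher, while another probe of it gave 2.46. Itga9, an integrin subunit, was at least 4.53 higher. Against the second competitor array the differences of Mtus2 and Itga9 were 1.81 and 2.49. Csgalnact1, a chondroitin sulfate synthase, differed by 4.56 and Cavin1, a coat protein of caveolae, by 4.51, of which 2.08 and 1.13 were left against the second competitor array. Tie1, an endothelial receptor also found on stem cells, differed by 4.29 in the pair and by 0.80 against the second competitor array. Markers of endothelial and stromal cells were measured for 11 of 18 genes, 6 higher and 1 lower (3 and 2 against the second competitor array), with Cdh5, Col1a1 and Cxcl12 not well above background on either array.

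Among the lower genes, Lmo1, a LIM-domain transcription regulator, had -1.76 on the RUNX1S291fs array, 3.79 on the competitor array, 2.96 on the second competitor array and 2.40 on WT. Of the lower genes beyond all 3 wild-type arrays, Lmo1 had the widest gap to the nearest of them, -4.16, followed by Il18r1 at -4.02 and Prss57, a serine protease of neutrophil granules, at -3.73. Afap1, an actin filament adaptor, had -3.58, 1.21 and 0.46 on the RUNX1S291fs, competitor and second competitor arrays. Hp, haptoglobin, had 2.80, 6.88 and 4.75, and Prom1, which encodes CD133, had -3.02, 1.05 and -1.16. Fmr1nb and Ly6k, both best known from testis, gave -5.83 and -5.36 but were high on the competitor array and not on the second: Fmr1nb had -3.90, 1.93 and -4.48 on the RUNX1S291fs, competitor and second competitor arrays, and Ly6k had -2.55, 2.82 and -4.23. Upk3bl, Ldhc and Dupd1 were not well above background on the RUNX1S291fs array or the second competitor array but were on the competitor array. Another probe of Ldhc had a bound with no direction.

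Genes reported elsewhere as RUNX1 targets lay on both sides. Of 37 genes, 28 were measured, 9 were higher and 7 lower, with a median of 0.02, and 6 were higher and 7 lower against the second competitor array. Among the higher ones were Itga2b, Cpa3 and, at 3.41, Hmga2, an architectural DNA-binding protein, with levels of 1.84 on the RUNX1S291fs array, -1.57 on the competitor array and -0.36 on the second competitor array. The lower ones were led by Elane, Gfi1, Il2rb and, at -2.13 or beyond, Tcf7, a T cell factor. Among Polycomb subunits, of 12 PRC2 genes 1 was higher and 0 lower (median -0.45). The higher one was Phf1, whose other probe had a bound with no direction. Of 18 measured PRC1 genes 1 was higher and 1 lower (median -0.06). Of all genes 9.13% were higher and 12.3% lower, and lists of 12 and 18 genes are too short to be told apart from these shares. Against the second competitor array 0 genes of either complex were 2-fold apart.

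**Figure D4:**
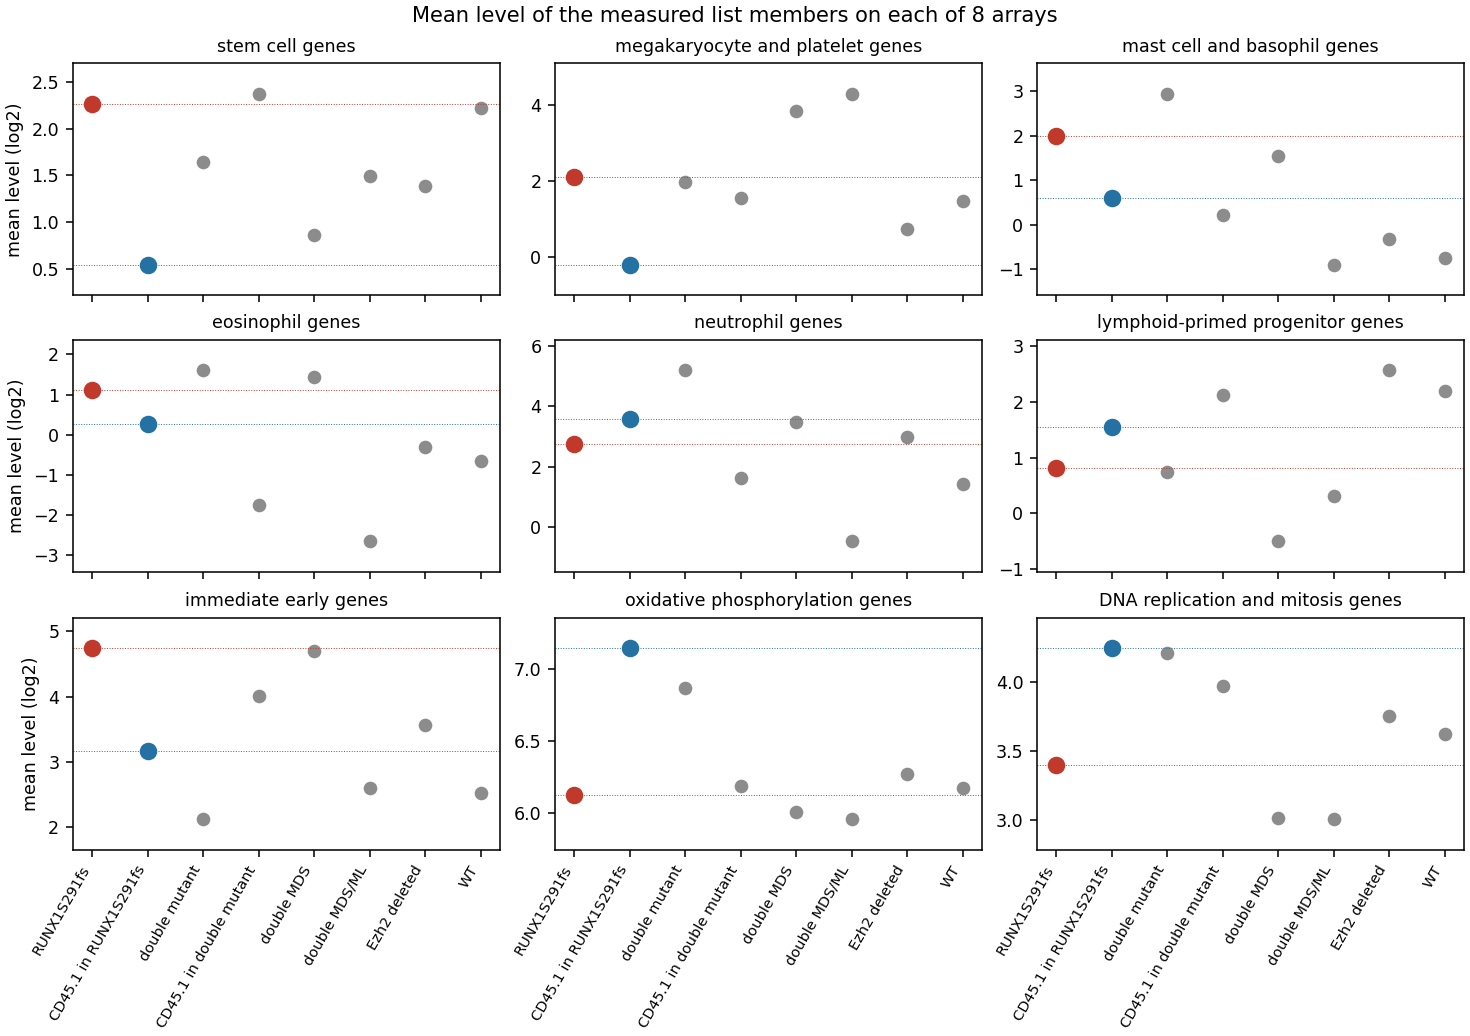
Mean level (log2 signal minus the array's 75th percentile) of the measured members of 9 gene lists on each of the 8 arrays, with RUNX1S291fs in red, its CD45.1 competitors in blue and dotted lines carrying both values across; the vertical scale differs between panels. For stem cell and oxidative phosphorylation genes the RUNX1S291fs array lies beside the second competitor array and WT and the blue point stands apart, whereas for mast cell genes both competitor arrays and WT lie below the red point.

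The double mutant and its own competitors gave a second pair within shared marrow, with no array in common with the first. It differed from the first pair in Ezh2 and crossed slides. Of 13871 genes, 1423 (10.3%) were at least 2-fold higher on the double mutant and 1314 (9.47%) lower, 19.7% in all. Over the 12762 genes measured in both pairs, the differences had Pearson's r of -0.15 and Spearman's rho of -0.25, which is a description across genes that are not independent. In both pairs 153 genes were higher, 13.4% of the higher genes of the first pair and 13.5% of those of the second, and 194 were lower, 12.5% and 17.8%. Opposite calls were more numerous, with 303 genes higher in the first pair and lower in the second and 290 the other way.

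Mast cell genes were higher in both pairs, with medians of 1.74 in the RUNX1S291fs pair and 2.74 in the double-mutant pair, as were eosinophil genes, with 1.11 and 3.37. Lymphoid-primed genes were lower in both, with -0.51 and -1.37, and so were B cell genes, with -0.63 and -1.88. In the second pair, Cpa3 differed by 4.15, C4b by 6.77, Treml1 by 2.63, Clec1b by 2.38 and Il18r1 by -3.55. Stem cell, immediate early and NF-kappaB genes were higher in the first pair and had medians of -0.72, -2.01 and -0.81 in the second, while neutrophil genes had 3.47 and oxidative phosphorylation genes 0.61 there.

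**Figure D5:**
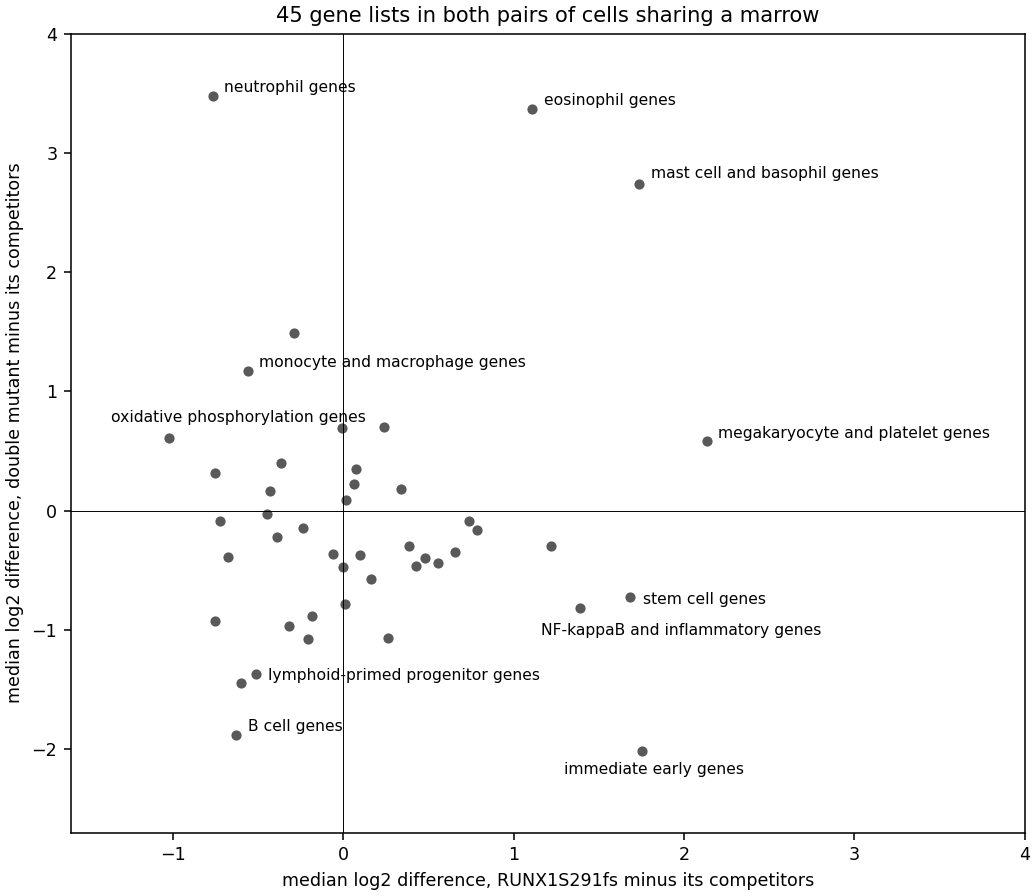
Median difference (log2) of each of 45 gene lists in the RUNX1S291fs pair (x axis) and in the double-mutant pair (y axis), each mutant minus the CD45.1 competitors of its own recipients, 1 point a list. Mast cell, eosinophil and megakaryocyte genes are positive in both, B cell and lymphoid-primed genes negative in both, and immediate early genes stand at 1.75 and -2.01.

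Because CD45.1 and CD45.2 cells differ by descent around Ptprc on chromosome 1, the genes nearest to it were looked at on their own. Of 40 neighbours, 20 on each side, 21 were measured, 2 were higher and 2 lower, which is 19.05% against 21.5% of all genes, with a median of -0.04. Of the neighbours, 1 was at least 2-fold apart in the same direction in both pairs.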

How the data were processed

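RNA of sorted LSK cells (20 ng, Low Input Quick Amp kit, 1 colour, per the labels' protocols) was read on Agilent arrays of design 028005 with Feature Extraction 10.7.1.1, protocol GE1_107_Sep09. Its processed signal is an intensity, background-subtracted within each array and not scaled between arrays, per the file headers. The series table deposited by the authors holds this signal divided by 1 factor per array: 100% of probes lay within 0.01 log2 of a constant ratio, so scale and centring are known (column medians 0.0526 to 0.0671).

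Spots of a probe were averaged, log2 values were scaled on the 75th percentile of 55681 non-control probes, and dim values were raised to the lowest well-above-background level. Names came from RefSeq GRCm38.p6: 27235 probes gave 20660 genes, 28446 stayed unnamed, and of several probes (5476 genes) the brightest was kept. The call is 2-fold, with no test, since each group has 1 array. The number of arrays limits the precision. The 46 lists (850 genes, 832 with a probe, 713 measured), the members and the alternatives were chosen with earlier results of these data known. Named genes were the 12 largest differences in each direction among genes measured on both arrays, the 6 largest bounds, up to 4 members a list past 2-fold in each direction, and sort, RUNX and sex-linked genes. The code that makes the calls was checked on simulated signals with known changes, which is no test of the calls themselves. Alternatives used limma 3.58.1 in R 4.3.3, the rest Python 3.11.15. Normexp used the median spot signal, the column the files hold. Arrays lay on 3 slides, each scanned once, with both arrays of the pair and the second competitor array on the same slide. Some genes that the naming rule picked are not reported here.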

Additional observations from a re-analysis of the deposited data

Results flagged for a closer look

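The 2 pairs of mutant and competitor cells gave list medians that lay in opposite directions for 6 lists, and the difference between the pairs was not tested. Each pair has 1 array a group, and the double-mutant pair also differs in Ezh2 and crosses slides. Stem cell genes had a median of 1.68 in the RUNX1S291fs pair and -0.721 in the double-mutant pair. Neutrophil genes had -0.768 in the RUNX1S291fs pair and 3.47 in the double-mutant pair. Monocyte and macrophage genes had -0.562 in the RUNX1S291fs pair and 1.17 in the double-mutant pair. Immediate early genes had 1.75 in the RUNX1S291fs pair and -2.01 in the double-mutant pair. NF-kappaB and inflammatory genes had 1.39 in the RUNX1S291fs pair and -0.813 in the double-mutant pair. Oxidative phosphorylation genes had -1.02 in the RUNX1S291fs pair and 0.61 in the double-mutant pair.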

How the results depend on the processing

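No paired analysis was possible because each group has 1 array. The results were recomputed under 11 alternatives and 1 added after seeing the data, the mean of 3 wild-type arrays. Of 202 named genes at least 2-fold apart, 0 turned under processing alternatives on the same 2 arrays, and 45 came within 2-fold at least once. The count of higher genes (1182) moved to 754 with the other competitor array and 342 at 4-fold. The count of lower genes (1599) moved to 1055 with quantile normalization, 961 with cyclic loess, 630 with normexp, 689 with the other competitor array, 227 at 4-fold and 536 with the mean of 3 wild-type arrays. With the second own-marrow pair, the genes called the same way in both pairs (347) became 175 with normexp, 223 with genes measured on both arrays, 591 with no filter and 76 at 4-fold. The 4 Ptprc neighbours that were 2-fold apart became 2 with cyclic loess, 1 with normexp, 7 with no filter, 2 with the other competitor array, 0 at 4-fold and 1 with the mean of 3 wild-type arrays. Of 8 list medians past 2-fold, 4 came under it under a processing alternative on the same 2 arrays: those of mast cell and basophil genes (lowest 0.86), eosinophil genes (0.87), endothelial and stromal genes and oxidative phosphorylation genes (-0.45). The endothelial and stromal median turned to -0.21 with no filter. With the other competitor array, differences turned to 0.055 for Bcl2a1d, -0.38 for Car2, 0.92 for Cebpe, 0.16 for Cox7b, -1.45 for Dlk1, 0.57 for Fmr1nb, -0.44 for Gata3, -0.11 for Gfi1b, 0.20 for Hbb-bt, -0.67 for Hoxb5, -0.95 for Hoxb6, -0.91 for Hspa1a, -2.01 for Hspb1, 1.69 for Ly6k, 0.45 for Mcpt8, -0.032 for Mef2c, -0.18 for Pbx3, 0.19 for Sdf2l1, -0.45 for Slamf1, -0.64 for Socs2, -0.61 for Spib, -0.081 for Trib3 and -0.074 for Vegfa. With the mean of 3 wild-type arrays they turned to 0.48 for Cebpe, 0.052 for Hbb-bt, 0.17 for Mcpt8, and the difference of Sdf2l1 to 0.015. The cause was not tested.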

Other observations

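Some transcripts of mature blood cells were higher on both arrays from RUNX1S291fs recipients than on the second competitor array and WT, with the genes chosen here after their values were seen. Hba-a2, an alpha globin gene, had 8.04 on the RUNX1S291fs array and 7.43 on its competitor array, against 3.71 on the second competitor array and 3.94 on WT. Alas2, the enzyme that starts heme synthesis in red cells, had -0.26 and -1.26 on the first 2 arrays, against -4.23 and -3.74. S100a8, an abundant neutrophil protein, had 4.47 and 5.72, against 1.23 and 2.54, and Ear1, an eosinophil ribonuclease, had 1.45 and 0.34, against -3.66 and -0.80. Hbb-bt, a beta globin gene, did not share this pattern, with 5.95 and 7.38, against 5.74 and 4.56. Nor did Car2 of the erythroid list, with 5.21 and 3.43, against 5.59 and 5.44, or Car1, with -1.96 and -0.66, against -0.67 and 0.16. The mean level of the erythroid list was 2.09 and 1.99, against 1.09 and 1.07. Its median difference between RUNX1S291fs and WT was 0.06, with 7 of 22 genes higher and 2 lower. The pattern was also not particular to these recipients: Hba-a2 had 8.40 on the Ezh2Δ/Δ array and 7.36 on the double mutant, and S100a8 had 6.24 and 9.23. The mean level of the neutrophil list was 2.75 on the RUNX1S291fs array and 3.58 on its competitor array, against 1.62 on the second competitor array and 1.41 on WT, but 2.98 on the Ezh2Δ/Δ array and 5.20 on the double mutant. Globin and Ear genes have near-identical copies whose probes may share signal. The part of mature cells in the sort was not tested.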
